A study of Mus musculus with 4 samples.

Results

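Transcripts of the mitochondrial genome in mouse epididymal white adipose tissue, a visceral fat depot next to the testis, were taken as every gene row whose symbol starts with mt-. This gave 37 of 39179 rows, made up of 13 mRNAs, 2 rRNAs and 22 tRNAs. Polyadenylated RNA was sequenced from 2 libraries labelled Nck2 KO, whose genotype is given as Nck2 mutant (Nck2-/- in the design), and from 2 libraries labelled WT (Nck2+/+). All 4 came from mice on a mixed genetic background, but the sources used here state neither their age, nor which part of Nck2 was altered, nor whether replicates were separate animals. P-values therefore measure the spread between these libraries, which may be technical. Nck2 encodes an adaptor protein that couples tyrosine-phosphorylated receptors to actin regulators.

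Mitochondrial DNA is a small circle that is transcribed from both strands into long precursors, which are cut mostly at the tRNAs that lie between the other genes. It encodes subunits of respiratory complexes I, III and IV and of ATP synthase (complex V), together with the rRNAs and tRNAs needed to translate them, while all other subunits are nuclear genes made in the cytosol and imported. Most mitochondrial mRNAs carry short poly(A) tails, and in several the tail supplies the missing letters of the stop codon. In white adipocytes mitochondria oxidise fatty acids and supply intermediates for lipid synthesis.

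The 3′ ends of 4 mRNAs are shown because poly(A) capture selects on them. Of the 13 mRNAs, 10 end with a complete stop codon in the annotation and 3 (mt-Co3, mt-Nd4 and mt-Cytb) end with a single T of one. Capitals mark the last complete or incomplete codon in the last 30 bases of each transcript (GENCODE M21, GRCm38, plus strand, DNA letters), at chrM:6843-6872, chrM:9361-9390, chrM:11515-11544 and chrM:15259-15288 in the order given.
mt-Co1: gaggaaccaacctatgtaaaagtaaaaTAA
mt-Co3: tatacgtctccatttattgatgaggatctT
mt-Nd4: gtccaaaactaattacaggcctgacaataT
mt-Cytb: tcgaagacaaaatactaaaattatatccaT

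Some reading frames overlap, among them mt-Atp8 with mt-Atp6 and mt-Nd4l with mt-Nd4 on the same strand. The upstream members of these pairs are shown whole because their counts differed so widely. Capitals mark the bases shared with the mRNA downstream, 43 for mt-Atp8 (chrM:7766-7969, plus strand, 204 bases) and 7 for mt-Nd4l (chrM:9877-10173, plus strand, 297 bases).
mt-Atp8: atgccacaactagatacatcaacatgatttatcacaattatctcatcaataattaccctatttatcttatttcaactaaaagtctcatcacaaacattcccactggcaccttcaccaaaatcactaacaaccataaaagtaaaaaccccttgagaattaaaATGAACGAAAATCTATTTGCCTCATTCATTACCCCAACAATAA
mt-Nd4l: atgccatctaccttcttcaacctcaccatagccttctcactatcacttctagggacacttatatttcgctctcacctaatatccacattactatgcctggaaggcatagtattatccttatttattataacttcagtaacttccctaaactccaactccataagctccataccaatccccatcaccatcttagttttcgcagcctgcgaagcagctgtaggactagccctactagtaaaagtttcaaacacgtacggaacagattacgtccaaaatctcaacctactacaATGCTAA

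The KO libraries held 37980391 and 33880872 reads assigned to genes, and the WT libraries held 31831904 and 34056187. Nck2 itself was at 1076 and 947 normalized counts in KO and at 1279 and 1667 in WT (limma adjusted p = 0.0509), and without knowledge of the altered part this cannot check the genotype labels. The share of reads from tissue and cell type markers differed between the groups. All 20 mature adipocyte markers were detected in every library and took 6.31% and 6.76% of KO reads, against 2.91% and 2.02% of WT reads. Of 20 epididymis and male tract markers, 9 and 11 had reads in the KO libraries, which together held 0.00134% and 0.000927% of reads, against 17 and 20 markers with 3.49% and 4.49% in the WT libraries. Akr1b7 is one of these markers and weighed heavily in the WT shares, since it alone had 682654 and 1091148 reads there. Lcn5, Lcn8, Lcn9, Lcn10, Spink11, Pax2 and Gpx5 were at 0 in both KO libraries. Smooth muscle markers (12 of 12 detected in every library) took 0.0870% and 0.0992% in KO and 1.67% and 2.26% in WT, and macrophage markers (13 of 13) took 0.192% and 0.168% in KO and 0.0989% and 0.0986% in WT. The part of these differences in the values below was not tested, and in bulk tissue fewer cells of a type and less RNA per cell cannot be told apart.

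The share of reads from mitochondrial mRNAs differed between genotypes by less than the spread between libraries. The 13 mRNAs together took 6.30% of reads in KO replicate 1 (exact 95% binomial interval 6.29 to 6.31) and 7.47% in KO replicate 2 (7.46 to 7.48), against 6.97% in WT replicate 1 (6.96 to 6.98) and 6.33% in WT replicate 2 (6.32 to 6.34). The highest and the lowest of the 4 values were both KO libraries, so the groups overlapped. The group means were 6.88% ± 0.826 in KO and 6.65% ± 0.451 in WT (SD, n = 2 each), a difference of 0.236 percentage points (exact two-sided permutation p = 1). With 2 libraries against 2, the smallest p that test can give is 0.33. The intervals cover counting error only, since PCR copies of a molecule cannot be recognised here, and the spread between libraries of a group was far wider than they are.

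The 2 rRNAs took a much smaller share of these poly(A)-selected libraries. They held 0.0773% (0.0765 to 0.0782) and 0.0946% (0.0936 to 0.0956) of KO reads and 0.0806% (0.0797 to 0.0816) and 0.104% (0.103 to 0.106) of WT reads. Again the groups overlapped (exact two-sided permutation p = 0.667). Per rRNA read there were 81.5 and 79.0 mRNA reads in KO, against 86.4 and 60.6 in WT, so WT replicate 2 stood lowest on this ratio.

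The 22 tRNAs were almost absent from the counts. Over all 4 libraries they had 29 reads, of which 19 were in mt-Tl1 (a leucine tRNA between mt-Rnr2 and mt-Nd1), and 16 tRNAs had none in any library. The KO libraries held 5 and 8 tRNA reads (1.32e-05% of reads, interval 4.27e-06 to 3.07e-05, and 2.36e-05%, interval 1.02e-05 to 4.65e-05). The WT libraries held 6 (1.88e-05%, interval 6.92e-06 to 4.10e-05) and 10 (2.94e-05%, interval 1.41e-05 to 5.40e-05). These intervals overlap, but they cover counting error in single libraries and are no test of genotype. The groups overlapped too (exact two-sided permutation p = 0.667), and no difference was detectable at this depth. In mt-Tl1 there were 4 and 6 reads in KO and 3 and 6 in WT, and in mt-Tm (methionine) 1 and 2 in KO and 0 and 3 in WT. The other reads were 1 each of mt-Tf, mt-Tk and mt-Tr in WT replicate 1 and 1 of mt-Ti in WT replicate 2. A tRNA at 0 in a library can have had up to 3 reads expected. The tRNAs are 59 to 75 bases long, so a 50-base read fits wholly inside one at only 10 to 26 positions. The sequence of mt-Tl1 (chrM:2676-2750, plus strand) is given because it holds most of the tRNA reads.
mt-Tl1: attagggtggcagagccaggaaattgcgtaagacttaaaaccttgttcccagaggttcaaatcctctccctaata

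**Figure D1:**
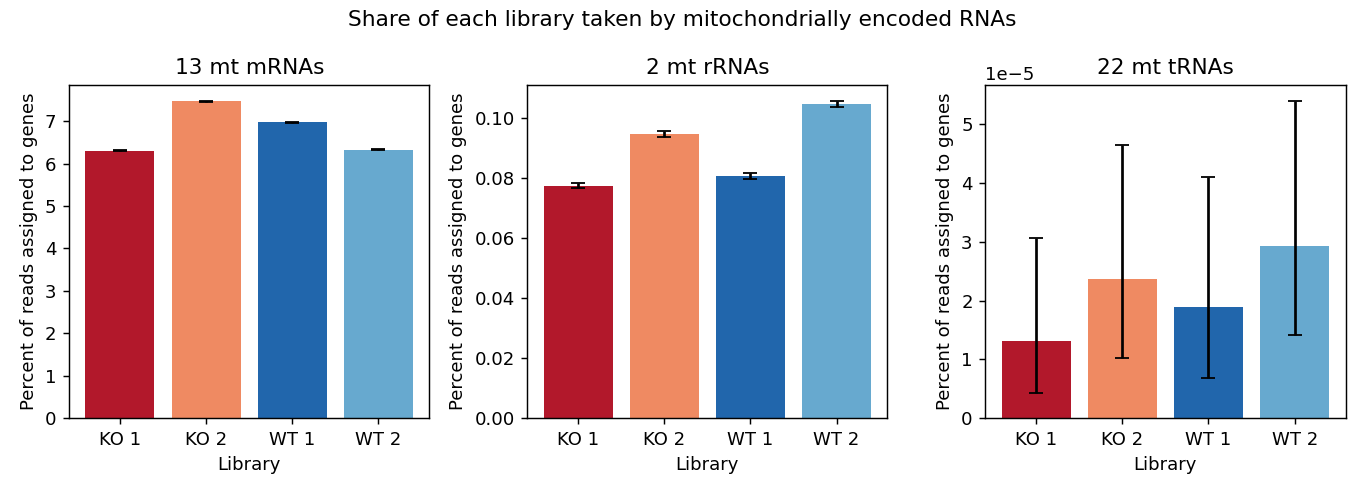
Share of reads assigned to genes, in percent, taken by the mt mRNAs, rRNAs and tRNAs in the KO and WT libraries; bars start at 0 and error bars are exact 95% binomial intervals for counting error. The mRNA share runs between 6.30% and 7.47%, with both extremes in KO libraries, and the tRNA panel rests on 5 to 10 reads a library.

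Several mitochondrial mRNAs were among the genes with the most reads, while mt-Nd6 ranked between 6619 and 8218 over the libraries and mt-Nd4l between 17529 and 20285. mt-Co1 (cytochrome c oxidase subunit I, the catalytic core of complex IV) had 607001 and 619964 reads in KO and 548835 and 520971 in WT. It ranked 1 and 2 among all genes in the KO libraries and 2 in both WT libraries. The genes above it were Scd1, a fatty acid desaturase, in KO replicate 2 and Akr1b7, which encodes an aldo-keto reductase, in both WT libraries. Of the 20 genes with the most reads, 8 and 9 were mitochondrial mRNAs in the KO libraries and 9 in each WT library.

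Per length, the mRNAs fell into a nearly fixed order over a limited range, with 2 exceptions far below it. In RPKM, the reads per kilobase of transcript scaled to the reads assigned in each library, mt-Co1 was at 10344 and 11844 in KO and at 11160 and 9901 in WT. mt-Co3, another complex IV core subunit, was at 8971 and 10446 in KO and at 11063 and 10199 in WT, and mt-Atp6, of the proton channel of ATP synthase, was at 9504 and 11121 in KO and at 9741 and 8753 in WT. These 3 genes lay within each other's spread over the libraries: mt-Atp6 ranked above mt-Co3 in both KO libraries and below it in both WT libraries. mt-Co2 came next in every library (7909 to 9199), followed by mt-Cytb, the complex III subunit (6536 to 8197), mt-Atp8 (5329 to 6285) and mt-Nd4 (4771 to 5954). The ranges of mt-Co2 and mt-Cytb overlapped over libraries, as did those of mt-Atp8 and mt-Nd4, while mt-Cytb and mt-Atp8 were apart.

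The other subunits of complex I, which takes electrons from NADH, held the lower ranks. mt-Nd1 ranged from 4031 to 5170 RPKM, mt-Nd2 from 3519 to 4545, mt-Nd5 from 2158 to 2723 and mt-Nd3 from 1963 to 2645. The order of these 4 was the same in every library, but mt-Nd1 overlapped mt-Nd2 over libraries, and mt-Nd5 overlapped mt-Nd3, while mt-Nd2 and mt-Nd5 were apart. Among the 11 mRNAs named so far the mean level of the highest was 4.61 times that of the lowest. Both rRNAs lay below all 11, mt-Rnr2 (the large-subunit rRNA) at 288 and 369 in KO and at 325 and 446 in WT, and mt-Rnr1 (the small-subunit rRNA) at 332 and 379 in KO and at 306 and 355 in WT. For comparison on the same scale, the median nuclear subunit stood at 37.1 and 40.9 in KO and 45.6 and 46.1 in WT for complex I, and at 81.6 and 84.0 in KO and 80.7 and 79.4 in WT for complex III. It stood at 81.5 and 87.6 in KO and 94.8 and 93.9 in WT for complex IV, and at 66.1 and 69.5 in KO and 60.3 and 57.5 in WT for complex V. These medians were lower in both KO libraries for complexes I and IV and higher in both for complexes III and V. No share over all genes was computed for such medians, and over single genes 79.5% did not overlap between groups in normalized counts. Summed over the subunits, the share of reads overlapped between groups for complexes I and III. It was lower in both KO libraries for complex IV and higher in both for complex V. For complex I the summed share was 0.267% and 0.288% in KO and 0.279% and 0.278% in WT. The highest nuclear subunit of complex IV, Cox8a, averaged 492 RPKM over the 4 libraries.

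mt-Nd6, a complex I subunit, is the only one of the 13 mRNAs encoded on the other strand (chrM:13552-14070, minus strand). It stood at 32.8 and 48.2 RPKM in KO and at 44.97 and 42.5 in WT. The neighbouring mt-Nd5, with which it shares 14 bases at the 3′ ends, was 65.8 and 55.3 times higher per length in KO, and 60.5 and 59.0 times higher in WT. In base composition mt-Nd6 also stood apart, with 28.1% G against 5.9% (mt-Atp8) to 16.1% (mt-Co1) in the other mRNAs. The strand setting of the counting is unknown from these sources, so reads antisense to mt-Nd6 cannot be told apart from its own.

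mt-Nd4l, another complex I subunit, had almost no reads. It was counted at 2 and 1 reads in KO and at 2 and 1 in WT, whereas mt-Nd4, which overlaps its end, had 267664 and 277976 in KO and 228360 and 223904 in WT. By contrast mt-Atp8, the upstream member of the overlapping pair with mt-Atp6, was at 0.588 and 0.565 of that gene's level per length in KO, and at 0.592 and 0.609 in WT. Of the 248 stretches of 50 bases in mt-Nd4l, 245 (98.8%) also occur exactly in the annotated nuclear pseudogene Gm10222 on chromosome 1, which has a row of its own in the deposited table with 2 and 2 reads in KO and 0 and 2 in WT. mt-Co2, mt-Co3, mt-Atp6 and mt-Nd3 have nuclear copies of the same kind (100%, 99.9%, 99.5% and 98.0% of stretches), yet had 25945 or more reads in every library, and their chromosome 1 copies (Gm28661, Gm28437, Gm10925 and Gm28438) have no row in that table. The handling of reads that match several places is unknown from these sources, and its part in these levels was not tested. For mt-Nd4 and mt-Co1 the shared part was 62.2% and 51.1%, and for mt-Nd2, mt-Nd5 and mt-Rnr2 it was 8.2%, 7.6% and 1.0%. mt-Cytb, mt-Nd1, mt-Atp8, mt-Nd6 and mt-Rnr1 had no stretch in common with an annotated nuclear transcript. The other copies with rows were low: Gm13340, which shares 411 stretches with mt-Co1, had 135 and 114 reads in KO and 123 and 100 in WT, and Gm13341, which shares 224 with mt-Co2, had 28 and 30 in KO and 18 and 33 in WT.

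**Figure D2:**
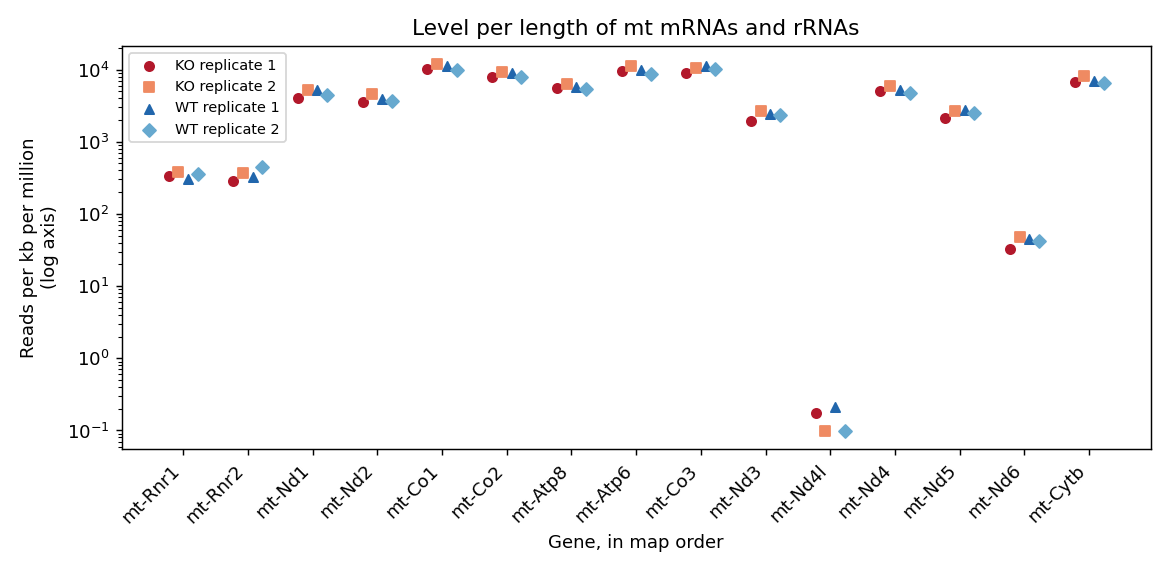
RPKM, from reads assigned to genes (log axis), for the mt mRNAs and rRNAs in map order, with 1 point per KO or WT library. The differences between genes are wider than those between libraries for most genes, and mt-Nd6 (32.8 to 48.2) and mt-Nd4l (1 or 2 reads a library) lie far below the other mRNAs.

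Differences between genotypes were tested for the 14 members whose normalized counts averaged at least 10, that is 12 mRNAs (all but mt-Nd4l) and both rRNAs. No tRNA reached that level. Normalized counts are reads divided by the authors' size factor for the library, and fold changes come from limma as log2(normalized count + 1) in KO minus that in WT, with p-values adjusted over all 16710 genes tested. Of the 12 mRNAs, 0 rose and 0 fell at an adjusted p of 0.05, and 0 had an unadjusted p under 0.05. Over all genes 46.7% were called (22.4% higher and 24.4% lower in KO). edgeR's quasi-likelihood test on the recovered reads also called 0 of the 12, with 0 at an unadjusted p under 0.05, where 45.4% of all genes were called (21.7% higher and 23.8% lower in KO). DESeq2 called 0, with 4 at an unadjusted p under 0.05, where 44.9% of all genes were called (21.6% higher and 23.3% lower in KO). In the authors' deposited table mt-Nd4l had no adjusted p, and none of the other 12 mRNAs passed (0). There 4 had p under 0.05 (mt-Nd4, mt-Atp6, mt-Cytb and mt-Atp8), and the smallest adjusted p was 0.067.

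On the scale of the authors' size factors the 12 estimates were all positive, but for 5 of them the sign depended on the scaling. As levels per length scaled to all assigned reads, the log2 ratio of KO over WT was negative for mt-Co3 (-0.13), mt-Nd5 (-0.12), mt-Nd6 (-0.11), mt-Nd1 (-0.06) and mt-Nd3 (-0.05), positive for the other 7 (0.02 to 0.16), and the groups overlapped for every mRNA. Summed over the mRNAs, the log2 ratio was 0.25 in normalized counts and 0.05 as a share of reads, with overlapping groups on both scales. With the size factors, the median log2 fold change of the 12 mRNAs was 0.24 (range 0.06 to 0.35), against -0.01 over all genes tested. KO replicate 2 held the highest normalized count of the 4 libraries for all 12. Without that library the median was 0.06, with 7 positive and 5 negative values. Without WT replicate 2 it was 0.14 (9 and 3), without KO replicate 1 it was 0.40 (12 and 0) and without WT replicate 1 it was 0.33 (12 and 0). The KO libraries were both above the WT libraries for 6 of the 12 and overlapped them for the other 6. Over all genes tested, groups did not overlap for 79.5% (38.9% higher and 40.6% lower in KO).

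In complex III, mt-Cytb was at 276587 and 354521 normalized counts in KO and at 255923 and 236919 in WT. Its log2 fold change was 0.35 (SE 0.38, 95% interval -0.67 to 1.37, limma adjusted p = 0.49). Both KO libraries were above both WT libraries, with KO replicate 1 close to the WT range. In complex V, mt-Atp6 had 230311 and 286306 in KO and 215147 and 188875 in WT (log2 fold change 0.35, interval -0.56 to 1.26, limma adjusted p = 0.438), and mt-Atp8 had 40539.6 and 48474 in KO and 38178 and 34447 in WT (0.29, interval -0.12 to 0.70, limma adjusted p = 0.189). Neither gene's groups overlapped.

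Of the complex IV mRNAs, mt-Co1 was at 568737 and 691770 normalized counts in KO and at 559191 and 484709 in WT (log2 fold change 0.27, SE 0.58, interval -1.30 to 1.84, limma adjusted p = 0.728). KO replicate 1 was barely above WT replicate 1. mt-Co2 had 192520 and 237880 in KO and 198903 and 171864 in WT (0.21), and mt-Co3 had 250295 and 309618 in KO and 281303 and 253353 in WT (0.06). In both, KO replicate 2 was the highest and the groups overlapped.

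Among the complex I mRNAs, mt-Nd4 was at 250791 and 310172 in KO and at 232669 and 208319 in WT (log2 fold change 0.34, interval -0.61 to 1.29, limma adjusted p = 0.466), with no overlap. mt-Nd2 had 129993 and 178352 in KO and 129669 and 120853 in WT (0.28), where KO replicate 1 and WT replicate 1 nearly coincided. The other 4 tested complex I mRNAs overlapped between groups. mt-Nd1 had 137292 and 187040 in KO and 159388 and 134847 in WT (0.13), and mt-Nd5 had 140103 and 183766 in KO and 161073 and 145155 in WT (0.07). mt-Nd3 had 24309.5 and 34800 in KO and 27601 and 25766 in WT (0.13), and mt-Nd6 had 606 and 945 in KO and 757 and 700 in WT (0.06). KO replicate 2 was the highest library for all 4, and KO replicate 1 was the lowest for each but mt-Nd1, where WT replicate 2 was slightly lower.

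The estimates for the rRNAs were unlike each other. mt-Rnr1 was at 11290 and 13669 normalized counts in KO and at 9466 and 10747 in WT (log2 fold change 0.30, SE 0.13, interval -0.05 to 0.66, limma adjusted p = 0.131), with no overlap. mt-Rnr2 was at 16229 and 22089 in KO and at 16688 and 22353 in WT (-0.03, SE 0.22, interval -0.63 to 0.57, limma adjusted p = 0.925). There were 1.44 and 1.62 mt-Rnr2 reads per mt-Rnr1 read in KO, against 1.76 and 2.08 in WT, so the ratio was lower in both KO libraries (exact two-sided permutation p = 0.33, the smallest possible). Of the 2 rRNAs, 0 passed by limma, edgeR or DESeq2, and 0 had an unadjusted p under 0.05 in any of the 3. The 95% interval of each of the 14 members included 0. The width of an interval depended on how limma modelled the variance: without its intensity trend, a fit added after seeing the data, the SE of mt-Co1 was 0.15 and its interval -0.19 to 0.73, and 0 of the 12 mRNAs were called (limma, smallest adjusted p = 0.163), where 39% of all genes were called (17.7% higher and 21.4% lower in KO).

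Within the mitochondrial mRNA pool, mt-Co3 showed the greatest difference in share, measured as a percent of the pool. mt-Co3 was 11.2% and 10.97% of mitochondrial mRNA reads in KO, against 12.4% and 12.6% in WT, a difference of -1.48 percentage points between group means (SD 0.14 in KO and 0.129 in WT, n = 2 each). mt-Nd5 was 6.25% and 6.51% in KO and 7.13% and 7.24% in WT, and mt-Nd1 was 6.12% and 6.62% in KO and 7.05% and 6.72% in WT. These 3 genes and mt-Nd6 (0.0270% and 0.03347% in KO, 0.03350% and 0.0349% in WT) had lower shares in both KO libraries than in both WT libraries, by a narrow margin for mt-Nd1 and mt-Nd6.

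For 3 other mRNAs the pattern was the reverse, with higher shares in both KO libraries. mt-Cytb was 12.3% and 12.6% in KO and 11.3% and 11.8% in WT, mt-Nd4 was 11.2% and 10.98% in KO and 10.3% and 10.4% in WT, and mt-Atp6 was 10.3% and 10.1% in KO and 9.52% and 9.42% in WT. Thus 7 of 12 shares (58.3%) did not overlap, against 68% of all genes tested when expressed per mitochondrial mRNA read (21.1% higher and 46.9% lower in KO). The exact two-sided permutation p was 0.33 for each of the 7, the smallest that 2 against 2 libraries can give. mt-Co1, the greatest share, was 25.4% and 24.5% in KO and 24.7% and 24.2% in WT, and overlapped. Read ratios were also taken between successive plus-strand mRNAs. As mt-Nd4l and the minus-strand mt-Nd6 were left out, mt-Nd3 was set beside mt-Nd4, and mt-Nd5 beside mt-Cytb. Of these 10 ratios, 8 did not overlap between groups (exact two-sided permutation p = 0.33 each). Over single genes, 79.5% of all genes did not overlap in normalized counts and 68% per mitochondrial mRNA read. No such share over ratios between genes was computed. Of the 10 ratios, the 3 with the greatest log2 ratio of KO over WT, in either direction, are given. mt-Atp6 and mt-Co3 lie on the same strand and share 1 base. There were 1.09 and 1.08 mt-Co3 reads per mt-Atp6 read in KO, against 1.31 and 1.34 in WT. Further along the circle there were 0.559 and 0.592 mt-Nd5 reads per mt-Nd4 read in KO, against 0.692 and 0.697 in WT, and 1.97 and 1.93 mt-Cytb reads per mt-Nd5 read in KO, against 1.59 and 1.63 in WT. The fold changes of the 12 mRNAs had Spearman correlations of -0.105 with map position, 0.0979 with length, 0.035 with GC content, 0 with the percent of stretches shared with nuclear transcripts and 0.413 with the mean level per length, given as a description over 12 genes of the same libraries.

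**Figure D3:**
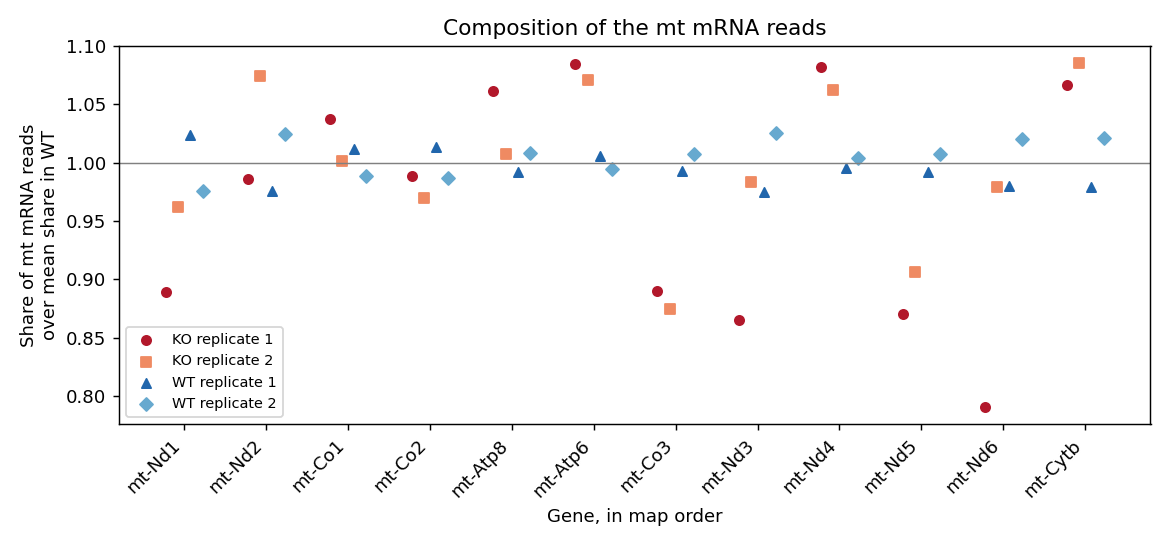
Share of mitochondrial mRNA reads taken by each mRNA, divided by its mean share in WT, for the KO and WT libraries in map order (mt-Nd4l, with 1 or 2 reads, is left out). Both KO libraries lie above both WT libraries for mt-Atp6, mt-Nd4 and mt-Cytb and below them for mt-Nd1, mt-Co3, mt-Nd5 and mt-Nd6.

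The nuclear partners of the same complexes were described alongside. Of 71 nuclear subunits, 13 rose, 4 fell and 54 did not pass (23.9% called, against 46.7% of all genes), with a median log2 fold change of 0.19. The 71 genes took 0.885% and 0.958% of KO reads and 0.923% and 0.905% of WT reads, with overlapping groups as for the mitochondrial mRNAs. As a share of reads, the log2 ratio of KO over WT was 0.01 for the 71 genes summed. By complex it was -0.006 for I, 0.005 for III, -0.095 for IV and 0.075 for V. The counts and medians here and for the lists that follow are on the scale of the authors' size factors. In complex I, 9 of 36 rose and 2 fell (median 0.20). Ndufb3, an accessory subunit, rose by 0.80 (SE 0.097, limma adjusted p = 0.00503) and Ndufv3, another accessory subunit, by 0.71 (limma adjusted p = 0.0124). Ndufab1, the mitochondrial acyl carrier protein, rose by 0.53 (limma adjusted p = 0.0195). None of 9 complex III genes passed with limma (median 0.25). Uqcrb had the smallest adjusted p, 0.0527, with 2663 ± 168 normalized counts in KO and 2243 ± 55.3 in WT (SD, n = 2 each). With limma 3 of the 9 had an unadjusted p under 0.05. edgeR called 0 of them, with 2 at an unadjusted p under 0.05, and DESeq2 called 1, with 4.

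In complex IV, Cox6b1 rose by 0.41 (limma adjusted p = 0.0357), Cox6c fell by 0.71 (limma adjusted p = 0.0121) and 9 of 11 genes did not pass (18.2% called, against 46.7% of all genes, median 0.09). In complex V, 3 of 15 rose, among them Atp5o (0.40) and Atp5e (0.31), and 1 fell (26.7% called, median 0.19). That gene was Atp5g1, one of several genes for the membrane c subunit, with 783 ± 15.8 normalized counts in KO and 1854 ± 213 in WT (log2 fold change -1.24, SE 0.10, limma adjusted p = 0.00214). Mitochondrial mRNA reads per nuclear subunit read were 7.66 and 8.42 in KO and 7.27 and 7.22 in WT for complex III, and 18.8 and 19.4 in KO and 18.6 and 16.9 in WT for complex IV, both higher in KO without overlap (exact two-sided permutation p = 0.33 each). For complex I they were 7.20 and 8.21 in KO and 7.86 and 7.21 in WT, with overlap. For complex V they were 2.08 and 2.28 in KO and 2.15 and 2.00 in WT, also with overlap. No share over all genes was computed for such ratios, and over single genes 79.5% did not overlap between groups in normalized counts. For complex III the shares of reads of both parts overlapped between groups. For complex IV the mitochondrial mRNA share overlapped (2.84% and 3.28% in KO, 3.20% and 2.87% in WT). The nuclear share of complex IV was lower in both KO libraries (0.151% and 0.169% in KO, 0.172% and 0.170% in WT).

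Among 14 genes of mitochondrial DNA transcription and maintenance, 3 rose, 2 fell and 9 did not pass (35.7% called, against 46.7% of all genes, median -0.06). Polg, the mitochondrial DNA polymerase, rose by 0.33 (limma adjusted p = 0.0157) and Tefm, an elongation factor of mitochondrial transcription, by 0.52 (limma adjusted p = 0.028), while Mgme1, a nuclease of mitochondrial DNA maintenance, fell by 0.96 (limma adjusted p = 0.0082). In the list for RNA processing and turnover 5 of 24 rose and 1 fell (25% called, against the same 46.7%, median 0.08). Mtpap, the mitochondrial poly(A) polymerase, was at 1441 ± 164 normalized counts in KO and 968 ± 49.8 in WT (log2 fold change 0.57, limma adjusted p = 0.0155), Elac2, which cuts tRNA 3′ ends, rose by 0.35 (limma adjusted p = 0.0176), and Trnt1, which adds CCA to tRNAs, rose by 0.37 (limma adjusted p = 0.0129).

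Of 75 mitochondrial ribosomal protein genes, 26 rose and 2 fell (37.3% called, median 0.19), where 22.4% of all genes rose and 24.4% fell (46.7% called), with Mrps9 up by 0.58, Mrpl10 by 0.45 and Mrpl45 by 0.41. Of 12 translation factors, 3 rose (Mrrf, Tufm and Gfm1, by 0.36, 0.25 and 0.27) and 9 did not pass (25% called, median 0.27). Of 14 regulators of mitochondrial biogenesis, 2 rose and 1 fell (21.4% called, median 0.10): Prkaa1 and Prkaa2, catalytic subunits of the AMP-activated kinase, changed by 0.53 and -0.63, and Gabpa, a transcription factor for nuclear respiratory genes, by 0.27. Over these 9 lists together 52 genes rose and 10 fell, where 3735 of all genes rose and 4074 fell. Without KO replicate 1 there were 44 and 5 in the lists (2849 and 3477 of all genes), and without KO replicate 2 there were 9 and 7 (2425 and 3255). Without WT replicate 1 there were 2 and 2 (1406 and 1765), and without WT replicate 2 there were 1 and 1 (650 and 1163), each from a fit with fewer degrees of freedom. With no intensity trend the counts in the lists were 17 and 4 (2951 and 3573 of all genes). For scale, the median log2 fold change was 1.68 over the 20 mature adipocyte markers and -4.46 over the 12 smooth muscle markers.

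**Figure D4:**
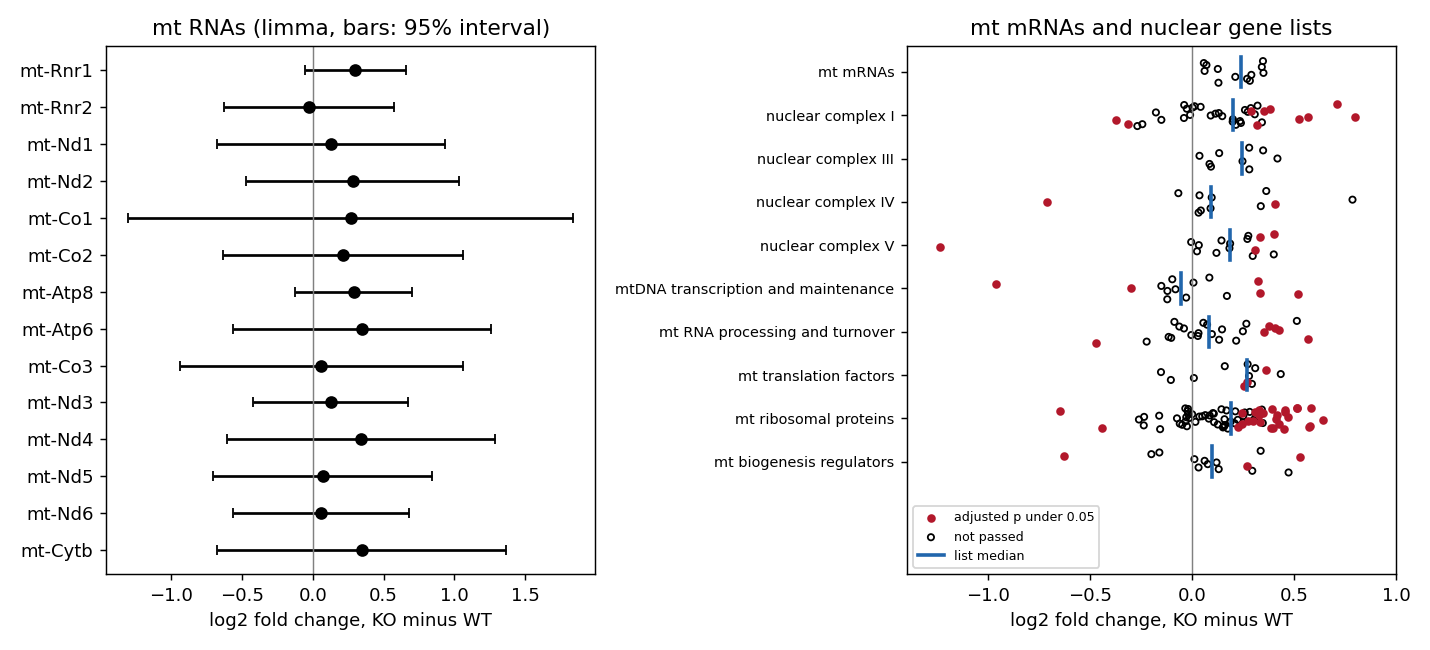
Left, log2 fold change (KO minus WT, log2(normalized count + 1) scale) of each tested mt mRNA and rRNA, with limma 95% intervals; right, the same quantity for single genes of the mt mRNAs and of 9 nuclear lists, with list medians as vertical bars and genes with an adjusted p under 0.05 filled. Every mt interval on the left spans 0, and no mt mRNA is filled. Of 71 nuclear respiratory chain genes, 13 rose and 4 fell (23.9% called, against 46.7% of all genes). The median was 0.24 over the mt mRNAs and 0.19 over those 71 genes. The mt intervals depend on limma's intensity trend (SE of mt-Co1 0.58 with it and 0.15 without).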

How the data were processed

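RNA libraries from epididymal fat, 2 labelled Nck2 KO and 2 labelled WT, were analysed, grouped by the titles in the labels. The submitters' processing notes list DESeq2 1.4.5, HTSeq 0.5.3, TopHat2 2.0.10 and CASAVA 1.8, and the build GRCm38. What the authors deposited is a signal per gene, normalized counts (reads over a size factor). The authors' deposited table adds log2 fold changes, standard errors, a test statistic (a score), p-values and adjusted p-values. Both files held identical library columns. Division by the value of 1 read recovered whole reads (100% whole within 0.01). Genes with a mean of 10 or more were fitted with limma 3.58.1 in R 4.3.3 (intensity trend, pseudocount 1, which understates changes of low genes), adjusted by Benjamini-Hochberg at 0.05, after the step was tested on simulated data. With the authors' size factors and the recovered reads, 7591 genes were called by edgeR 4.0.16 and 7509 by DESeq2 1.42.0, against 7809 with limma. Shares used recovered reads, exact (Clopper-Pearson) intervals and exact permutation tests. Lengths, positions and sequences came from GENCODE M21 (GRCm38), and nuclear copies were sought only in its transcripts. Members and lists were chosen with earlier results of these data known. All members were named (tRNAs mostly as counts), with up to 3 genes a list by smallest p. Alternatives were other pseudocounts, filters, scalings and tools, a replicate block and left-out libraries.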

Additional observations from a re-analysis of the deposited data

How the results depend on the processing

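Of 224 values for the 14 tested members under the alternatives, 0 passed the threshold, the smallest adjusted p was 0.059 (DESeq2), and 10 changed direction, all on leaving out a library. A left-out library leaves 1 sample in a group, assumed to vary like the other group. Leaving out each library in turn, the log2 fold change ran from -0.25 to 0.19 for mt-Rnr2, -0.095 to 0.35 for mt-Nd1, -0.093 to 0.21 for mt-Co3, -0.13 to 0.38 for mt-Nd3, -0.13 to 0.27 for mt-Nd5 and -0.26 to 0.38 for mt-Nd6. The log2 ratio of shares ran from -0.0777 to 0.168 for mRNAs, -0.281 to 0.0921 for rRNAs, -0.873 to -0.0299 for tRNAs (29 reads in all) and -0.08 to 0.166 for all mt transcripts. As a sum of normalized counts the rRNA ratio was 0.0948, against -0.107 as a share, and the mRNA ratio 0.248, against 0.0503. With 1 library left out, genes called over all ran from 650 to 2849 higher and 1163 to 3477 lower. Over the 9 nuclear lists they then ran from 1 to 44 higher and 1 to 7 lower. Under the other alternatives, genes called over all ran from 2737 to 3905 higher and 3339 to 4505 lower. Over the lists they then ran from 15 to 63 higher and 4 to 11 lower. With no intensity trend, added after seeing the data as was robust moderation, the lists held 17 higher and 4 lower. Same-numbered KO and WT libraries did not deviate together over all genes tested (correlation -0.00904). With 2 libraries a group this is a single contrast, so it cannot tell whether the numbers pair samples. With the replicate block the lists held 15 higher and 8 lower, and 0 mt mRNAs were called. Nck2 passed with a pseudocount of 5 (limma adjusted p = 0.0495) and with DESeq2 (adjusted p = 0.0204). Where values changed, the cause was not tested.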
